A study of Mus musculus with 4 samples.

Results

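The genes described here are 10 genes of inflammasomes and pyroptosis, namely Nlrp3, Nlrp1b, Nlrc4, Naip5 and Mefv, which code for sensors, Pycard, which codes for the adaptor ASC, the caspase genes Casp1 and Casp4, the pore-forming gasdermin Gsdmd, and the cytokine gene Il18. They were chosen by symbol, and all 10 were found among the 16375 genes listed in the deposited table. RNA sequencing was done on bone marrow-derived macrophages of WT mice and of lncLy6c KO (LNCKO) mice, the latter made by CRISPR-Cas9 cuts on either side of the lncLy6c exons. The LNCKO mice were on a C57BL/6J background, and the methods give C57BL/6 for mice without that deletion. Each genotype had a control library and a library from cells given 500 µM butyrate for 24 h, which makes 4 groups of 1 library. All cultures had been grown from bone marrow cells with M-CSF. The labels give no sex, age or number of mice behind a culture.

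An inflammasome is a protein complex that a macrophage assembles in its cytosol after a sensor has met a microbial product or a disturbance of the cell. NLRP3 responds to potassium loss and membrane damage, NLRP1B to proteases that cut it, the NAIP proteins to bacterial flagellin and secretion system proteins that they pass on to NLRC4, and pyrin, the product of Mefv, to the loss of RhoA activity. Through ASC or directly, the sensors activate caspase-1, which matures interleukin-1β and interleukin-18 and cuts gasdermin D. Caspase-11, the product of mouse Casp4, binds lipopolysaccharide in the cytosol and cuts gasdermin D as well. The cut gasdermin forms pores in the plasma membrane, and the cell dies by pyroptosis. Many of these steps act on proteins already made, so a transcript level gives neither the amount of a protein nor whether an inflammasome is active.

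Levels are given for each genotype with the control first and butyrate second. They are FPKM (fragments of a gene over its length in kilobases and scaled to the library total) as the authors deposited them. On the values themselves, the gene length in the FPKM was the whole genomic span, introns included. On that length, 98.6% of the 16342 genes matched to the annotation had whole fragment numbers (within 0.05) in all 4 libraries. On the length of the exons 7.48% did, with the library totals fitted on the span. No totals were fitted on exon length, so the 2 shares are not an equal contrast. The library totals recovered on the span ranged from 53363944 to 65521713 fragments. Changes were therefore read as plain ratios of FPKM between libraries, with a gene counted as past the threshold at 1.5-fold, among the 10923 genes that were above 0 in every library and averaged 0.1 FPKM or more. All 10 genes passed this filter. Since each group is 1 library, none of the differences was set against replicates, and p-values were not computed. The 95% intervals given with the values come from the fragment numbers. They cover counting error only and say nothing of the spread between cultures, and fragments without molecular identifiers are not independent molecules. In bulk RNA, fewer cells of a type and less RNA per cell cannot be told apart.

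The cultures carried the transcripts of the labelled cell type. All 10 macrophage markers, Csf1r, Adgre1 and Mertk among them, had a mean FPKM of at least 1, and their summed FPKM ranged from 853 to 965. The 7 monocyte markers summed to 1132 and 1310 in WT and 1130 and 1208 in LNCKO. Values on the genomic span are not comparable between genes, so such sums do not give the share of a cell type. Markers of other bone marrow cells were present too. The 11 neutrophil and precursor markers summed to 2714 and 3178 in WT and 2350 and 2265 in LNCKO, and the 7 B cell markers to 209 and 164 in WT and 213 and 216 in LNCKO. The erythroid markers summed to 5.99 and 6.68 in WT and 22.6 and 64.6 in LNCKO. These were the globin transcripts Hba-a1, Hba-a2 and Hbb-bt, while Alas2 and Klf1 stayed under 0.1 in all libraries. The median log2 changes with butyrate, WT before LNCKO, were 0.17 and 0.02 for macrophage markers, 0.02 and 0.10 for monocytes, -0.16 and 0.17 for T and NK cells, -0.33 and -0.06 for dendritic cells, -0.36 and -0.12 for mast cells and basophils, 0.14 and 1.49 for erythroid cells and 0.44 and 1.09 for stromal cells. The summed FPKM of the 4 Y-linked genes Ddx3y, Eif2s3y, Kdm5d and Uty was 0.136 and 0.0657 in the WT libraries and 10.3 and 11.5 in the LNCKO libraries. The genotype therefore cannot be told apart from Y-linked expression, and with it from the sex of the donor mice, which the labels do not give. This holds for every comparison of LNCKO with WT and for the difference between their butyrate changes.

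Some sequences bear on how the values can be read. Naip5 lies in a cluster of closely related genes, and of its 5105 windows of 100 bases, the read length, 825 (16.2%) also occurred in transcripts of another gene of the GENCODE M21 annotation. For Nlrp1b this was 0.0476%, all of it Nlrp1a, and for the other 8 genes 0%. Of the genes that share windows with Naip5, Naip3 shared the most, 8.72% of the 5105. Naip6, Naip1 and Naip2 followed in that order, so Naip2 shared the fewest. The following 100 bases of the coding sequence of Naip5 (exon 9, chr13:100223010-100223109 of GRCm38, - strand) are identical in Naip2 and Naip6. A read from them alone names no single gene, though in paired-end reads its mate may lie where the genes differ.
Naip5, Naip2 and Naip6: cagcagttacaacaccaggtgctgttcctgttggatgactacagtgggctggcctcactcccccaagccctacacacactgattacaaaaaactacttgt
The next 60 bases (chr13:100222950-100223009) tell them apart, with capitals at each position where at least 1 of the 3 genes differs, and both Naip2 and Naip6 have 4 differences from Naip5 there.
Naip5: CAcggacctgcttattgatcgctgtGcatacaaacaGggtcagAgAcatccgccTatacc
Naip2: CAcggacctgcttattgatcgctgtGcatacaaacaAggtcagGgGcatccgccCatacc
Naip6: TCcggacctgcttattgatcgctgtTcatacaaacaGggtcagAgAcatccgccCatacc
How the authors' counting treated reads that fit several genes is not given in the sources used here, so the values of Naip5, Naip2 and Naip6 are uncertain to that extent. Of the other genes, Pycard shares 12.8% of its exon bases with Gm45205, a gene on the opposite strand, and whether the counting used the strand is not known.

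Promoters were searched for letters of factors that act in macrophages, and those of the genes with a match are shown. RefSeq start sites on GRCm38.p6 matched 9 of the 10 genes, with 12 promoters, each of the same length. Gsdmd is named without one. They were searched on both strands for an NF-κB motif (GGGA, any base, TTCCC), found in 0.359% of all 32851 promoters, for the PU.1 letters GAGGAAGT, found in 3.2%, and for an interferon-stimulated response element (GAAA, any 2 bases, GAAA), found in 3.44%. Among the 12, the NF-κB letters occurred only in Casp4, in both of its overlapping promoters, the PU.1 letters in Nlrp1b and Pycard, and the interferon element in none of the 12. The 100 bases before the start site are shown for these 3 genes, with the match in capitals; the match in Pycard is to the other strand.
Nlrp1b (chr11:71230734-71230833, - strand): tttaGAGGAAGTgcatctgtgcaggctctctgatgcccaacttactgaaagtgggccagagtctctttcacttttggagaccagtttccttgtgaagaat
Pycard (chr7:127993868-127993967, - strand): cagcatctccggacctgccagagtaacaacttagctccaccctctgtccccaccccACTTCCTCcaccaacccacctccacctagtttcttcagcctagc
Casp4 (chr9:5308749-5308848, + strand): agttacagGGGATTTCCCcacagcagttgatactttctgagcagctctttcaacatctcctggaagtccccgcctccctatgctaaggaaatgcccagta
Nlrp1b and Pycard were the most and the least variable of the 10 genes, so the same letters were found at both ends of the range. A match is a description of letters and no evidence of binding.

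None of the 10 genes differed by 1.5-fold between the libraries of any of the 4 comparisons on the deposited values, and with values rescaled to the same sum Nlrp1b alone did, at -0.59 with butyrate in WT. With butyrate in WT macrophages 0 of the 10 genes passed 1.5-fold, where 7.03% of all 10923 genes did, and in LNCKO macrophages it was 0 of 10 against 3.28%. Between LNCKO and WT it was 0 of 10 without butyrate, against 4.55% of all genes, and 0 of 10 under butyrate, against 7.15%. A count of 0 among 10 genes is near these backgrounds. The 10 genes together took between 0.0769% and 0.0803% of the fragments of a library.

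**Figure D1:**
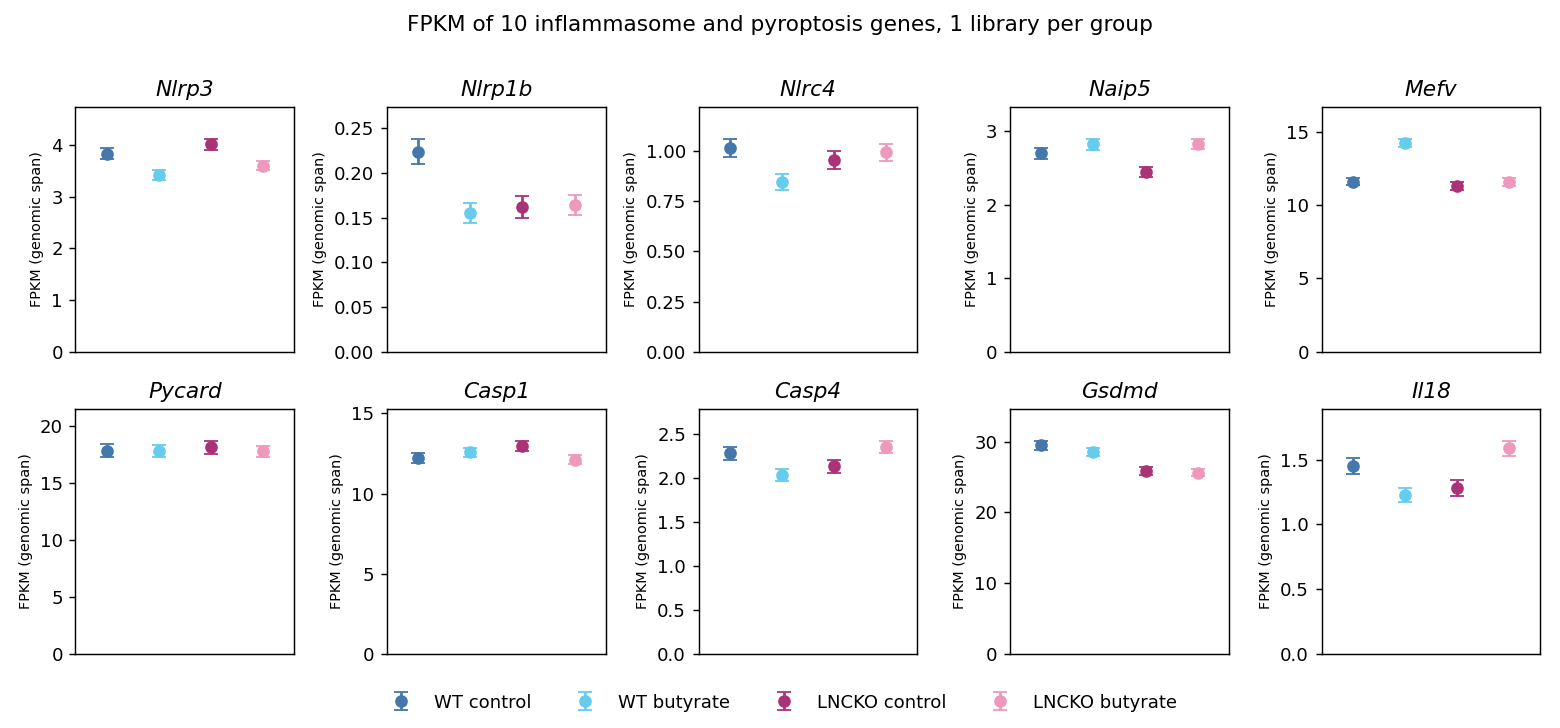
Deposited FPKM (y axes, from 0, per kilobase of genomic span) of each of the 10 genes in the control and butyrate libraries of WT and LNCKO; points are single libraries and bars 95% counting intervals. Pycard lies between 17.7 and 18.1 in all 4, whereas Nlrp1b is at 0.224 in WT control and between 0.155 and 0.164 in the other libraries.

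Among the sensors, Nlrp3 (ENSMUSG00000032691, chr11:59541568-59566956, + strand) had an FPKM of 3.84 and 3.42 in WT and 4.02 and 3.61 in LNCKO. It was lower with butyrate in both genotypes, by nearly the same ratio. The log2 change was -0.17 (interval -0.22 to -0.11) in WT, and LNCKO gave -0.16 (-0.21 to -0.10). The difference between these changes was -0.01 (-0.09 to 0.07). LNCKO exceeded WT by 0.07 without butyrate and by 0.08 with it. The level with butyrate was 1.12-fold lower in WT and 1.11-fold lower in LNCKO.

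Nlrp1b (ENSMUSG00000070390, chr11:71153102-71230733, - strand) was the most variable of the 10 genes and the one with the fewest fragments, from 669 to 979 per library. Its FPKM was 0.224 and 0.155 in WT and 0.161 and 0.164 in LNCKO, so WT control stood above 3 libraries of nearly equal level. The log2 change with butyrate in WT was -0.53 (-0.67 to -0.39), a level 1.45-fold lower, and the interval reached past 1.5-fold. In LNCKO the change was 0.02 (-0.13 to 0.17). LNCKO differed from WT by -0.47 (-0.61 to -0.33) without butyrate and by 0.08 (-0.07 to 0.23) with it. The change in WT lay at percentile 3.85 of all 10923 genes and the difference between controls at percentile 2.99. Both rest on the single WT control library. With a pseudocount of 1 FPKM, which is large for a gene with long introns at this level, the change in WT was -0.08.

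Nlrc4 (ENSMUSG00000039193, chr17:74425438-74459142, - strand), which assembles the inflammasome below the NAIP receptors, had an FPKM of 1.01 and 0.846 in WT and 0.952 and 0.992 in LNCKO. WT butyrate was the low library, with a change of -0.26 (-0.36 to -0.17) in WT against 0.06 (-0.03 to 0.15) in LNCKO. Under butyrate LNCKO exceeded WT by 0.23 (0.14 to 0.32).

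Naip5 (ENSMUSG00000071203, chr13:100211739-100246323, - strand), a receptor of flagellin, had an FPKM of 2.70 and 2.82 in WT and 2.45 and 2.83 in LNCKO. LNCKO control was the low library, 0.14 (0.08 to 0.20) below WT control on the log2 scale, and both butyrate libraries were level at 0.00 (-0.05 to 0.05). The butyrate change was 0.07 (0.01 to 0.12) in WT and 0.21 (0.15 to 0.26) in LNCKO. The paralogs Naip2 and Naip6, with which Naip5 shares identical stretches such as the one shown above, gave -0.06 and -0.01 in WT and 0.07 and 0.17 in LNCKO. Values of Naip3, which shares the most windows with Naip5, are not given here. Naip5 and its partner Nlrc4 were lowest in different libraries.

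Mefv (ENSMUSG00000022534, chr16:3707218-3718097, - strand) had an FPKM of 11.6 and 14.2 in WT and 11.3 and 11.6 in LNCKO. WT butyrate stood above the other 3 libraries, which differed by less than 0.05 on the log2 scale. It was the gene with the highest change in WT, at 0.29 (0.25 to 0.34), a 1.23-fold higher level at percentile 89.6 of all genes, against 0.04 (-0.01 to 0.08) in LNCKO. Neutrophils carry this transcript as well as macrophages, and most of the neutrophil and precursor markers were also higher in WT butyrate. In WT, 8 of these 11 markers were higher with butyrate and 2 of them past 1.5-fold (4% of all genes were higher by that much), with a median log2 change of 0.31, against 4 of 11 higher and a median of -0.04 in LNCKO. The highest change of the list in WT was that of Ly6g, a defining marker, with an FPKM of 4.04 and 9.43 in WT and 2.99 and 3.79 in LNCKO. The granule protein genes Ngp, Ltf and Camp had the other sign in WT, at -0.35, -0.19 and -0.45. No marker of the list was at 0. The part of these cells in the Mefv values was not tested.

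The adaptor gene Pycard (ENSMUSG00000030793, chr7:127989708-127993867, - strand) had an FPKM of 17.8 and 17.8 in WT and 18.1 and 17.7 in LNCKO. The highest library was 1.02-fold above the lowest, a range at percentile 0.348 of the 10923 genes. With 4019 to 4833 fragments per library, the interval of the butyrate change ran from -0.06 to 0.06 in WT and from -0.09 to 0.03 in LNCKO.

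Casp1 (ENSMUSG00000025888, chr9:5298517-5307265, + strand) was nearly as steady, at an FPKM of 12.2 and 12.6 in WT and 12.97 and 12.1 in LNCKO. Its values were not whole on the annotated span of 8749 bases and were whole on 8783 bases, the length its intervals use. The butyrate change was 0.04 (-0.01 to 0.09) in WT and -0.10 (-0.15 to -0.05) in LNCKO. Casp4 (ENSMUSG00000033538, chr9:5308828-5336783, + strand) starts 1562 bases after the end of Casp1 on the same strand and showed another pattern. Its FPKM was 2.28 and 2.04 in WT and 2.14 and 2.36 in LNCKO. With butyrate it was lower in WT, at a log2 change of -0.16 (-0.23 to -0.10), and higher in LNCKO, at 0.14 (0.08 to 0.21). The neighbours had log2 ratios of opposite sign in the 4 comparisons, with Casp4 at -0.10 and Casp1 at 0.09 between LNCKO and WT controls, and at 0.21 and -0.05 under butyrate, but the interval of Casp1 in WT held 0, and its ratio there turned to -0.01 with values rescaled to the same sum. Casp4, like Il18, was highest in the LNCKO butyrate library, which also had the highest sum of globin transcripts. The part of erythroid cells in these values was not tested.

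Gsdmd (ENSMUSG00000022575, chr15:75862327-75867408, + strand), the executor of pyroptosis, had an FPKM of 29.5 and 28.5 in WT and 25.9 and 25.6 in LNCKO. Both LNCKO libraries lay below both WT libraries. On the log2 scale LNCKO differed from WT by -0.19 (-0.24 to -0.14) without butyrate and -0.15 (-0.20 to -0.11) with it, or 1.14-fold and 1.11-fold lower, at percentiles 9.79 and 18.0 of all genes. The butyrate change was -0.05 in WT and -0.01 in LNCKO, with signs that turned to 0.01 in both when libraries were scaled by their median ratio. Mefv had its WT libraries above its LNCKO libraries too, but with WT control and LNCKO butyrate both at 11.6, and the other 8 genes overlapped between the genotypes. Of all 10923 genes, 35.8% had libraries that did not overlap between the genotypes.

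Il18 (ENSMUSG00000039217, chr9:50554827-50581840, + strand) had an FPKM of 1.45 and 1.23 in WT and 1.28 and 1.59 in LNCKO. Its direction with butyrate was opposite in the 2 genotypes. WT gave a log2 change of -0.24 (-0.33 to -0.15), and LNCKO gave 0.31 (0.23 to 0.40), a 1.24-fold higher level. Under butyrate LNCKO exceeded WT by 0.37 (0.29 to 0.46), the largest such difference of the 10 genes. The gene was read from 1843 to 2806 fragments per library.

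**Figure D2:**
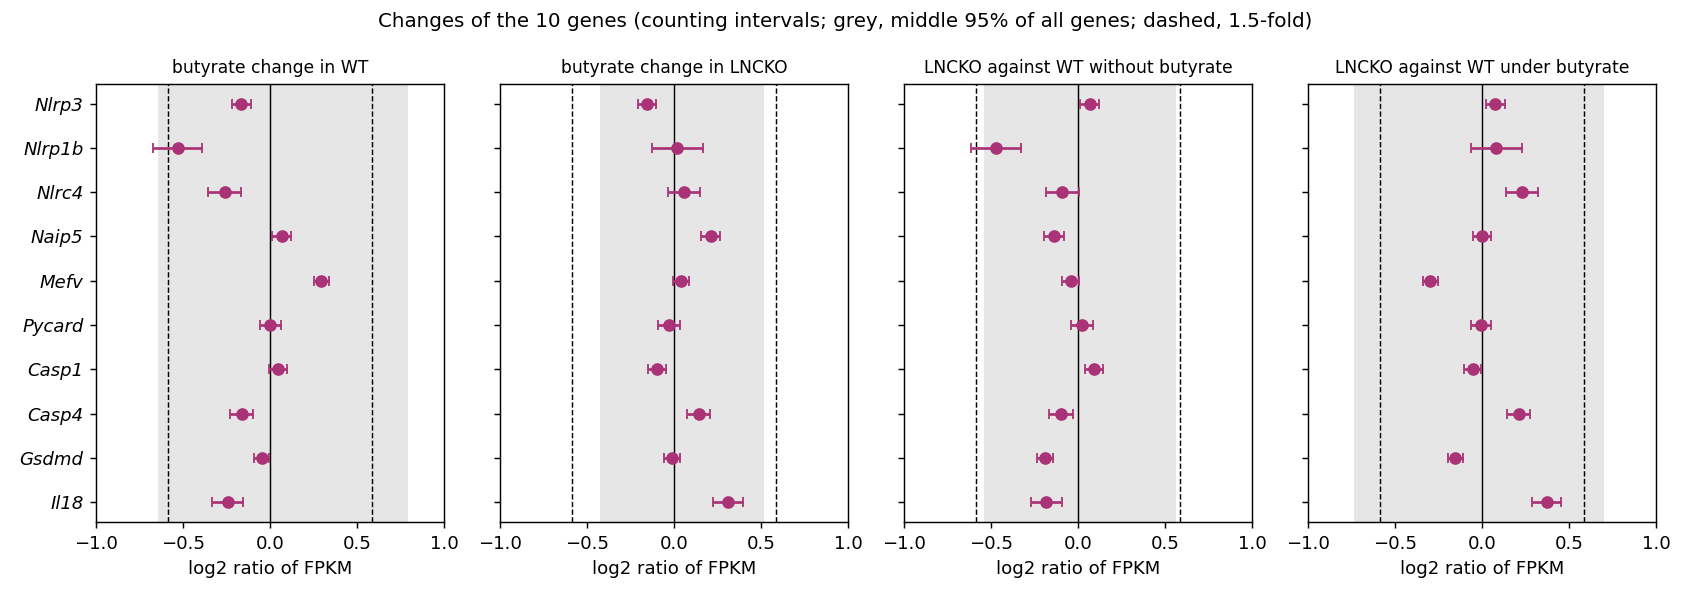
Log2 ratios of FPKM (x axes) of the 10 genes in the 4 comparisons, with 95% counting intervals; the grey bands hold the middle 95% of 10923 genes and dashed lines mark 1.5-fold. All points lie between the dashed lines, the lowest being Nlrp1b with butyrate in WT at -0.53 and the highest Il18 under butyrate at 0.37.

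Across the 10 genes, butyrate gave a median log2 change of -0.11 in WT (4 higher, 6 lower) and 0.03 in LNCKO (6 higher, 4 lower), beside medians of -0.05 and -0.02 over all genes. LNCKO against WT gave a median of -0.09 without butyrate (3 higher, 7 lower) and 0.04 under butyrate (6 higher, 4 lower), beside 0.02 and 0.05 over all genes. These comparisons share libraries with each other. WT butyrate was the lowest of the 4 libraries for Nlrp3, Nlrc4, Nlrp1b, Casp4 and Il18, that is, for 5 of the 10 genes, and it was also the lowest for 46.5% of all genes. The change in WT less that in LNCKO was past 1.5-fold for 0 of the 10 genes, against 8.96% of all genes. It came nearest to the threshold for Il18 at -0.55 (-0.68 to -0.43), which passed it at -0.59 with values rescaled to the same sum, Nlrp1b at -0.55 (-0.75 to -0.35) and Nlrc4 at -0.32 (-0.45 to -0.19). For Mefv it had the other sign, at 0.26 (0.19 to 0.32). In the WT comparison the B cell markers were lower too, all 7 of them, with a median of -0.25 and 1 of them past 1.5-fold (3.03% of all genes were lower by that much), against a median of 0.00 in LNCKO. Between the controls, where Nlrp1b was lower in LNCKO, their median was 0.02. Cd79a, which defines these cells, had an FPKM of 68.3 and 51.3 in WT and 69.3 and 69.2 in LNCKO. Other marker lists also had lower medians with butyrate in WT. The dendritic cell markers were at -0.33 (5 of 6 lower) and the mast cell and basophil markers at -0.36 (2 of 4 lower). The T and NK cell markers were at -0.16 (4 of 6 lower). The part of the B cells or of these other cells in the lower values was not tested.

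Levels were compared between genes per length of exon, with all fragments of a gene taken as lying in its exons. Whether fragments in introns were counted is not known. If so, they raise the genes with long introns, such as Il18 (1031 exon bases in 27014) and Nlrp1b (6305 in 77632), and the order is uncertain to that extent. On this scale, FPKM recomputed on exon length, the mean over the libraries was 73.1 for Casp1, 58.5 for Gsdmd, 40.7 for Mefv, 36.3 for Il18, 23.3 for Nlrp3, 19.5 for Pycard, 17.9 for Naip5, 16.6 for Casp4, 6.67 for Nlrc4 and 2.165 for Nlrp1b. Casp1 and Gsdmd stood above all other genes in every library, and Nlrc4 and Nlrp1b below them. Mefv and Il18 overlapped in their ranges over the libraries (37.7 to 47.6 and 32.1 to 41.5), as did Naip5 and Casp4 (16.3 to 18.8 and 15.3 to 17.8), whereas Pycard, from 19.4 to 19.8, lay just above both. The order depends on the exon length taken. Per length of the longest coding transcript, Casp4 came to 42.9, level with Mefv at 42.8 and Il18 at 42.3, whose ranges it overlapped. Gsdmd came to 77.6 and Casp1 stayed at 73.1, with ranges that overlapped as well. For Pycard the annotation holds coding transcripts of 3800 and 493 bases, and its place in the order is not settled.

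**Figure D3:**
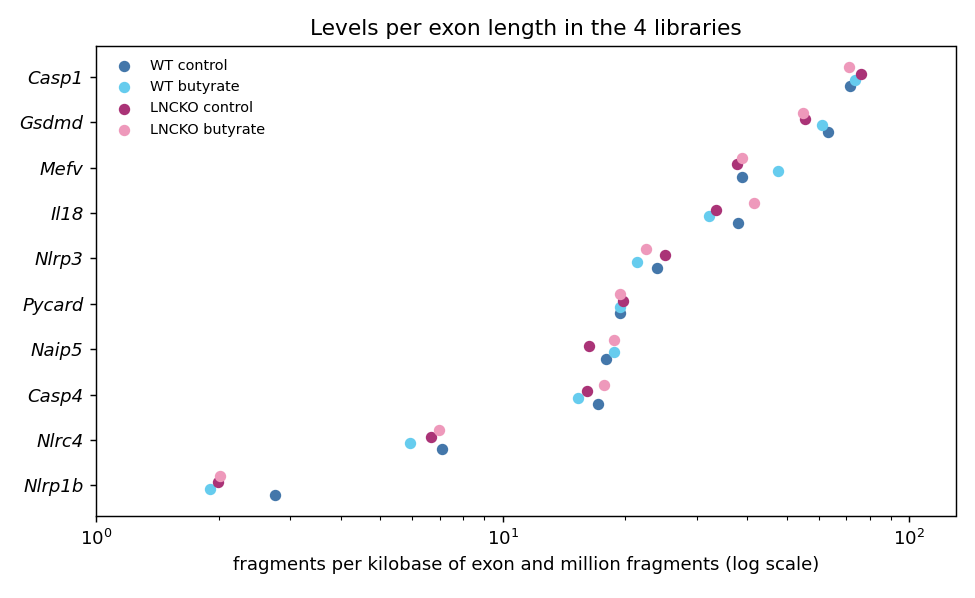
FPKM recomputed on exon length, with all fragments taken as exonic (x axis, log scale), of the 10 genes in the 4 libraries, 1 point per library, ordered by the mean. Casp1 lies from 71.1 to 76.1 and Nlrp1b from 1.91 to 2.75, a far wider spread than that between libraries of 1 gene.

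For the 3 genes with the widest range over the libraries, the genes nearest in pattern were sought as those with the smallest distance between their 4 centred log2 FPKM values. Arhgef37 (distance 0.04), Fzd4 (0.05) and Abhd15 (0.05) were nearest to Nlrp1b, with 8 genes in all within 0.1. Gpr55 (0.02), Arrdc4 (0.03) and Osgepl1 (0.05) were nearest to Il18, with 32 genes within 0.1, and Zfp518b (0.01), Zfp358 (0.02) and Ttll12 (0.02) to Mefv, with 172. Arhgef37 had an FPKM of 1.20 in WT control and between 0.828 and 0.850 in the other libraries, the same shape as Nlrp1b at a higher level. Likeness over 4 libraries is a description.

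The rest of the pathway was read in 7 further lists with 67 genes, of which 59 were listed in the table and 53 passed the filter. With butyrate in WT, 3 of the 53 were past 1.5-fold, all higher (5.66%, against 7.03% of all genes in either direction and 4% higher), and in LNCKO 0 were, against 3.28%. Without butyrate 1 gene, Gbp2b, was higher in LNCKO than in WT and 0 lower (1.89%, against 4.55% of all genes). Under butyrate 0 were higher and 2, Nlrp12 and Gbp2b, lower (3.77%, against 7.15%). The change in WT less that in LNCKO was past 1.5-fold for 4 genes, with Nlrp12, Gbp2b and Gbp8 higher and Ly96 lower (7.55%, against 8.96%).

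The guanylate-binding proteins, interferon-inducible GTPases that open bacteria and vacuoles to caspase-11 and AIM2, held the largest changes. Gbp2b had an FPKM of 0.187 and 1.78 in WT and 0.318 and 0.253 in LNCKO. WT butyrate stood far above the other libraries, 9.56-fold over WT control, with a log2 change of 3.26 (3.07 to 3.45) from 256 and 2569 fragments, whereas the change in LNCKO was -0.33 (-0.53 to -0.13). Gbp8 was 2.07-fold higher with butyrate in WT, at an FPKM of 0.141 and 0.292, and 0.210 and 0.197 in the LNCKO libraries. The other 8 genes of the family, Gbp2, Gbp5 and Gbp3 among them, had log2 changes from -0.11 to 0.18 in WT, and the median over all 10 was 0.11 in WT and 0.05 in LNCKO.

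Of the 10 other sensor genes, 8 were listed and 6 passed the filter. Nlrp12, an NLR protein of neutrophils and monocytes, had an FPKM of 0.326 and 0.586 in WT and 0.296 and 0.338 in LNCKO. Like Mefv it was high in WT butyrate alone, at a log2 change of 0.85 against 0.19 in LNCKO, beside the neutrophil markers whose values are given above. Aim2, the sensor of cytosolic DNA, had log2 changes of -0.21 in WT and 0.04 in LNCKO, and Nlrp1a, the neighbour of Nlrp1b, had -0.43 and -0.36. Nlrp6 was listed at 0 in 3 libraries.

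Of the cytokine genes and their antagonists, 0 of 9 passed 1.5-fold in either genotype, with medians of 0.13 in both. Il1b, the other main substrate of caspase-1, had an FPKM of 12.4 and 16.1 in WT and 15.5 and 16.9 in LNCKO. WT control was the low library, and the butyrate change was 0.38 (0.32 to 0.43) in WT and 0.13 (0.08 to 0.18) in LNCKO. Il18bp, which codes for the protein that binds and blocks interleukin-18, had an FPKM of 42.3 and 48.0 in WT and 47.2 and 55.2 in LNCKO and was 0.18 and 0.22 higher with butyrate. In WT, Il18 and Il18bp thus had changes of opposite sign.

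Among the 6 further caspase genes that passed the filter, 0 were past 1.5-fold, with medians of -0.23 in WT and 0.03 in LNCKO. Casp8, whose product can also cut gasdermin D, had log2 changes of -0.05 in WT and 0.06 in LNCKO. Casp12, next to the inflammatory caspases, was too low for the filter. Of the genes of membrane rupture, 3 of 10 passed the filter and 0 were past 1.5-fold. Ninj1, which tears the membrane after pore formation, had an FPKM of 15.1 and 15.5 in WT and 16.5 and 19.0 in LNCKO, with log2 changes of 0.04 and 0.20. Gsdme had log2 changes of 0.25 and 0.17, and Gsdma was listed at 0 in 3 libraries.

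The 8 regulators of NLRP3 held 0 genes past 1.5-fold, with medians of -0.08 in WT and -0.02 in LNCKO. The potassium channel gene Kcnk6 had the lowest change in WT, at -0.46, and 0.07 in LNCKO. P2rx7, the receptor for extracellular ATP, was lower in LNCKO than in WT, at -0.36 without butyrate and -0.27 with it, and Nek7, whose product binds NLRP3, had log2 changes of -0.19 in WT and -0.09 in LNCKO. Of the 11 genes of lipopolysaccharide sensing and of transcription, 0 were past 1.5-fold with butyrate in either genotype. Cd14, the lipopolysaccharide receptor of the cell surface, was lower with butyrate in both, at -0.56 in WT and -0.33 in LNCKO. Ly96, which codes for the lipopolysaccharide-binding partner of TLR4, had the lowest difference between the changes in WT and LNCKO, at -0.61.

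**Figure D4:**
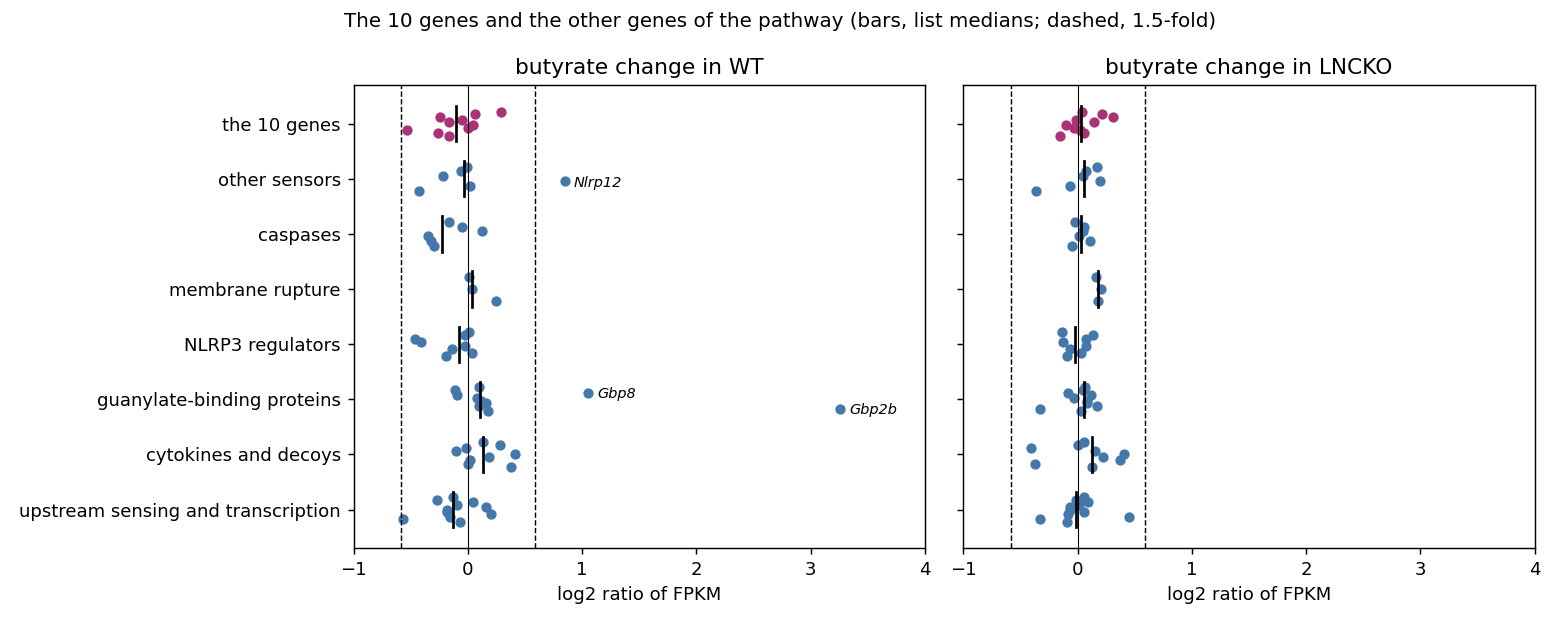
Log2 ratios of FPKM with butyrate (x axes) in WT and in LNCKO for the 10 genes and for the genes of 7 further pathway lists that passed the filter; bars are list medians and dashed lines mark 1.5-fold. Nlrp12, Gbp8 and Gbp2b lie past 1.5-fold in WT, at 0.85, 1.05 and 3.26, and no gene does in LNCKO.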

How the data were processed

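The authors deposited FPKM values for 16375 genes and 4 libraries, without counts. Per the labels, the submitters' processing notes name STAR 2.5.0c, Picard 1.126, bedtools 2.17.0, HTSeq 0.6.0, DESeq2 3.0 and the builds GRCm38 and mm10, without saying which step made the values. RNA was sequenced as paired-end reads of 100 bases. Genotype and treatment were taken from the sample titles; the library names of the LNCKO samples, with NC and R3, do not spell them.

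Gene spans and exons came from GENCODE M21 (GRCm38). Library totals are the numbers on which FPKM came out as whole fragments. Intervals are exact Poisson intervals for levels, exact conditional binomial intervals for ratios and normal intervals for differences of changes, at 95%. Ratios had no pseudocount. With 1 library per group, no test was run and no library could be left out without emptying a group. A change was called past 1.5-fold. The genes named are the 10 genes, the genes of fixed lists and the 3 nearest in pattern to each of the 3 most variable genes. The 4 Y-linked genes and the overlapping genes Gm45205, Bco2, Tex12 and CT033749.1 were added afterwards. The genes, the lists and the threshold were chosen with earlier results of these data known. The steps were tested on simulated data. Alternatives were pseudocounts of 0.1 and 1, other filters, 2 library scalings, a fold of 2 and another transcript length. The 9 marker lists are given with the results. Single values of some genes of the lists are not reported here. Tools were matplotlib 3.10.9, pandas 2.3.3, scipy 1.17.1, numpy 2.4.6 and Python 3.11.15.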

Additional observations from a re-analysis of the deposited data

Results flagged for a closer look

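Genes were singled out where the butyrate change had opposite signs in WT and LNCKO and neither counting interval held 0. The same was seen in 13.4% of the 10754 genes past the filter with whole fragments. The difference between the genotypes was not tested, since each direction rests on 1 library per group. Among the 10 genes this was the case for 2, Il18, where the change in WT less that in LNCKO was -0.55, and for Casp4, where it was -0.31. The other pathway genes past the filter were 53, some of them not reported here, so those named give no share to set against 13.4%. Among them the same difference was 3.59 for Gbp2b, 0.29 for Lbp and 0.23 for Irf1, which were higher with butyrate in WT and lower in LNCKO. It was -0.61 for Ly96, -0.53 for Kcnk6, -0.23 for Myd88, -0.20 for Gbp7, -0.16 for Gbp9, -0.13 for Naip2 and -0.11 for Casp8, which were lower with butyrate in WT and higher in LNCKO. Of these 12 genes, 8 kept opposite signs with intervals without 0 under scaling by the median ratio, and Naip2, Casp8, Ly96 and Lbp did not. With values rescaled to the same sum 8 did, and Casp8, Kcnk6, Gbp9 and Myd88 did not. Il18, Casp4, Gbp2b, Gbp7 and Irf1 did under both.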

How the results depend on the processing

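Within a single comparison no paired analysis was possible, because each holds a single pair of libraries, and leaving out a library would empty a group. A fit of butyrate over both genotypes, paired by genotype, was possible but was not run. It takes the difference between the changes in the genotypes as error. Of the counts of the 10 genes past 1.5-fold, 33 of 35 under the alternatives stayed at 0. Most of these could hardly do otherwise. The other filters leave the ratios as they are, pseudocounts shrink them and a fold of 2 is stricter. Of the library scalings, the median ratio left 5 counts at 0, and the same sum left 3 at 0 and moved 2. With values rescaled to the same sum, 1 gene passed in WT with butyrate, Nlrp1b at -0.59, and 1 passed in the difference between the genotypes, Il18 at -0.59; the median of all genes under that scaling was -0.11 in WT and -0.07 in the difference. Of the log2 values of the 10 genes under the alternatives, 261 stayed within and 29 moved beyond the counting error, 13 of the latter with a pseudocount of 1. The 261 include 50 values with no filter and 40 with the filter at 1 FPKM, and these filters do not change a ratio. The sign turned in 9 values near 0, 4 under scaling by the median ratio and 5 with the same sum.

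The numbers of all genes past 1.5-fold are given in the order butyrate in WT, butyrate in LNCKO, LNCKO against WT without butyrate, the same under butyrate, and the difference of the butyrate changes. They were 768, 358, 497, 781 and 979. With a pseudocount of 0.1 they were 471, 210, 310, 513 and 664. With a pseudocount of 1 they were 107, 40, 55, 117 and 138. With no filter on low values they were 1961, 1359, 1611, 1979 and 2358, among genes averaging 1 FPKM or more they were 171, 58, 83, 208 and 218, and with a fold of 2 they were 274, 148, 217, 284 and 401. The 768 genes in WT were 437 higher and 331 lower, which became 519 and 268 with scaling by the median ratio and 379 and 422 with the same sum. The depth limits Nlrp1b most among the 10 genes. The length of the longest coding transcript was chosen after seeing the data and moved the levels of 4 genes beyond their range over the libraries.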
